A study of Mus musculus with 5 samples.

Results

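The cells described here were monocytes recovered from the spleens of leukaemic mice, defined by the Ly6C gene Ly6c2 and the chemokine receptor gene Ccr2. A cell was counted as a member when it had at least 3 unique molecular identifiers (UMIs, each standing for 1 captured transcript) of Ly6c2, at least 1 of Ccr2 and at least 2 of Csf1r, F13a1 and Ms4a6c together. It also had to hold fewer than 10 UMIs per 10000 of C1qa, C1qb and C1qc, fewer than 10 per 10000 of Mpo, Elane, Prtn3 and Ctsg, fewer than 5 per 10000 of Cpa3, Ms4a2 and Fcer1a, and fewer than 2 UMIs of Cd3d, Cd3e, Cd3g and Jchain. Of 32240 cells that passed the quality limits, 352 were members, 1.09% of the total. C57BL/6 mice, whose age and number per library the labels do not give, carried intravenously grafted CMM cells, an inv(16) acute myeloid leukaemia that carries green fluorescent protein (GFP). Dosing started at about 1% GFP+ leukaemia cells in blood and was by vein, 3 times, on alternate days. The treated group received CpG-STAT3dODN, a DNA decoy for the transcription factor STAT3 linked to a CpG stretch, the ligand of the receptor TLR9 (4 libraries, Decoy 2, Decoy 3, Decoy 5 and Decoy 6), and the control group received PBS (1 library). Double-positive cells, for GFP and the stem cell factor receptor c-Kit, were sorted, and 10x Genomics 3' libraries were sequenced, so every group shared the graft, the gate and the host strain. The question set by the design is what STAT3 blockade with TLR9 stimulation does to the gene programme of the sorted cells. For these members it becomes which genes differ between monocytes of Decoy and PBS libraries.

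Classical monocytes leave the bone marrow through the receptor Ccr2, which binds the chemokine Ccl2, and their growth and survival depend on Csf1r, the receptor for colony-stimulating factor 1. In the spleen they can become macrophages or antigen-presenting cells, and interferon gamma induces their MHC class II genes through the coactivator Ciita. MHC class II molecules, built from an alpha and a beta chain, display peptides from engulfed proteins to CD4 T cells. Type I interferon, made after nucleic acids are sensed by receptors such as TLR9, induces a partly overlapping set of genes in the same cells.

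Members numbered 73, 57, 92 and 75 in Decoy 2, 3, 5 and 6, against 55 in PBS. Their summed depth was 2467330, 1612146, 2610657 and 1919438 UMIs in the Decoy libraries, against 1403974 in PBS. A median member held 28092, 24387, 24410 and 22515 UMIs in the Decoy libraries, against 20492 in PBS, so PBS was the shallowest by both measures. The libraries held 1941 to 6252 kept cells for Decoy and 17219 for PBS, and any pair shared 1 to 37 cell barcodes, at most 0.618% of the smaller library. Cells high in the mast cell genes Cpa3, Ms4a2 and Fcer1a, which carried most of the Xist signal, made up 77.0%, 20.7%, 0.360% and 43.7% of kept cells in Decoy 2, 3, 5 and 6, against 84.2% in PBS. How many animals stand behind a library is not stated in the labels, so that a p-value here covers only the spread among libraries. With 1 PBS library, the PBS level was assumed to vary like the Decoy ones.

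The members went against the label of the sort in part. Kit, the gene for the c-Kit receptor of the gate, had a UMI in 9, 0, 3 and 3 members of the Decoy libraries, against 3 members of PBS, and its summed level was 9.71, 0, 1.87 and 1.58 counts per 1000000 UMIs (CPM) in Decoy monocytes, against 2.20 CPM in PBS monocytes. Y-linked transcripts were found in 79.5%, 87.7%, 88.0% and 90.7% of Decoy members, against 92.7% of PBS members, 308 of 352 in all. In the class high in mast cell genes, 5 or more UMIs of Xist, the RNA of the inactive X chromosome, were found in 97.0%, 92.0% and 96.8% of the cells of Decoy 2, 3 and 6 and in none of the 13 such cells of Decoy 5, against 97.6% in PBS. Among monocytes only 4 of Decoy 2 and 1 of PBS reached 5 Xist UMIs. All 5 also had Y-linked UMIs, and the shallowest had 65192 UMIs in Decoy 2 and 101368 in PBS. Xist stood at 78.1 CPM in Decoy 2 monocytes and at 0 in Decoy 3, 5 and 6, against 48.4 CPM in PBS. The 4 Y-linked genes Ddx3y, Eif2s3y, Kdm5d and Uty summed to 84.2 to 117 CPM in Decoy monocytes, against 132 CPM in PBS monocytes. Ddx3y, an RNA helicase gene, stood at 40.9, 41.1, 38.6 and 35.8 CPM in Decoy, against 46.9 CPM in PBS, and Eif2s3y, for a translation initiation factor, at 24.3, 38.6, 48.0 and 58.0 CPM in Decoy, against 49.1 CPM in PBS. Kdm5d, a histone demethylase gene, stood at 9.74 to 14.9 CPM in Decoy, against 19.8 CPM in PBS, and its relative Uty at 8.09 to 14.9 CPM in Decoy, against 16.1 CPM in PBS.

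The genes of the rule chose the members and are therefore given as a description with no test. Ly6c2 stood at 2846, 3449.8, 3131 and 3568 CPM in Decoy monocytes, against 1572 CPM in PBS monocytes. Every Decoy library lay above PBS, and the median member had 34.5 to 35.8 UMIs of Ly6c2 per 10000 in the Decoy libraries, against 15.1 in PBS. Ccr2 stood at 644, 725, 726 and 829 CPM in Decoy, against 776 CPM in PBS, with PBS inside the Decoy range. Csf1r stood at 176, 176, 161 and 228 CPM in Decoy, against 133 CPM in PBS. F13a1, the gene for coagulation factor XIII A, was at 148, 220.4, 384 and 373 CPM in Decoy, against 207 CPM in PBS. Ms4a6c, a membrane protein gene of the Ms4a family, was at 1002, 1166, 1032 and 1139 CPM in Decoy, against 1134 CPM in PBS. For these last genes only Csf1r lay on one side of PBS in all 4 Decoy libraries. Among the genes limited by the rule, C1qb, a complement gene of macrophages, was at 89.4, 95.9, 92.5 and 69.6 CPM in Decoy, against 61.6 CPM in PBS, and the granule protease gene Prtn3 at 330.3, 309, 326 and 350.1 CPM in Decoy, against 424 CPM in PBS. Fn1, the fibronectin gene and the marker that the rule did not use, was at 166, 194, 381 and 452 CPM in Decoy, against 233 CPM in PBS, so PBS lay inside the Decoy range.

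Few cells lay near the threshold for Ly6c2. With 3 or 4 UMIs there were 2, 8, 8 and 4 members in the Decoy libraries, against 2 in PBS, and with 2 UMIs, just outside, there were 3, 3, 5 and 0 cells in Decoy, against 0 in PBS. Thinned to 5000 UMIs per cell, which left out no member, Ccr2 was found in 93.2%, 89.5%, 83.7% and 86.7% of Decoy members, against 81.8% of PBS members. Among B cell-like cells, where Ccr2 is not expected, the share was 2.38%, 1.88%, 0.954% and 0.629% in Decoy, against 0% in PBS, at median depths of 6163 to 9150 UMIs in Decoy and 4002 in PBS. As the rule asked for a Ccr2 UMI in every member, this contrast was fixed in advance and is a description only. Fn1 was found in 34.2%, 38.6%, 46.7% and 41.3% of thinned Decoy members, against 49.1% of thinned PBS members.

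The members were a mixed population in every library. Lyz2, the lysozyme gene of monocytes and macrophages, was below 40 UMIs per 10000 in 10, 12, 22 and 8 Decoy members, against 6 PBS members. A UMI of the dendritic cell genes Flt3, Xcr1 or Clec9a was found in 7, 5, 17 and 6 Decoy members, against 2 PBS members, and 3 or more UMIs of the red pulp macrophage genes Spic and Vcam1 in 9, 17, 23 and 15 Decoy members, against 2 PBS members. Relative to the number of members, the macrophage genes were rarer in PBS. UMIs of the B cell genes were found in 11, 16, 30 and 10 Decoy members, against 5 PBS members. Haemoglobin transcripts went the other way, with 3 or more UMIs in 14, 5, 25 and 17 Decoy members, against 48 of the 55 PBS members. Igkc is an immunoglobulin light chain gene that neither monocytes nor neutrophils are known to make. After thinning it was found in 19.2%, 47.4%, 71.7% and 34.7% of Decoy members, against 1.82% of PBS members, and in 12.6%, 45.7%, 64.0% and 32.3% of Decoy neutrophil-like cells, against 0% of PBS neutrophil-like cells. Free RNA and doublets with B cells were not told apart here.

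The clearest difference between Decoy and PBS monocytes lay in the MHC class II genes. H2-Eb1, which encodes the beta chain of the I-E molecule, stood at 905, 1134, 965 and 1069 CPM in Decoy monocytes, against 244 CPM in PBS monocytes. H2-Aa, which encodes the alpha chain of the I-A molecule, stood at 1237, 1475, 1161 and 1368 CPM in Decoy, against 377 CPM in PBS. For both genes all 4 Decoy libraries lay close together and far above PBS. These were the genes called among 9658 tested with edgeR's quasi-likelihood test at a Benjamini-Hochberg adjusted p under 0.05, that is 2 genes or 0.0207% of those tested, both higher in Decoy. H2-Eb1 rose 4.17-fold to a mean of 1018 ± 102 CPM in Decoy (SD, n = 4), against 244 CPM in PBS (n = 1), a log2 fold change of 2.06 (SE 0.185, edgeR adjusted p = 0.0226). H2-Aa rose 3.47-fold to 1310.1 ± 139 CPM in Decoy (SD, n = 4), against 377 CPM in PBS (n = 1), a log2 fold change of 1.80 (SE 0.181, edgeR adjusted p = 0.0272). No gene was called lower, 0% of those tested, while 995 genes had an unadjusted p under 0.05 and DESeq2 called 97 genes, 56 higher and 41 lower, with H2-Eb1 and H2-Aa among them. The edgeR calls of both genes were lost without Decoy 3 (adjusted p = 0.0750 for each) and without Decoy 5 (adjusted p = 0.0717 for each), when no gene was called, whereas 86 genes were called without Decoy 2 and 6 without Decoy 6.

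**Figure D1:**
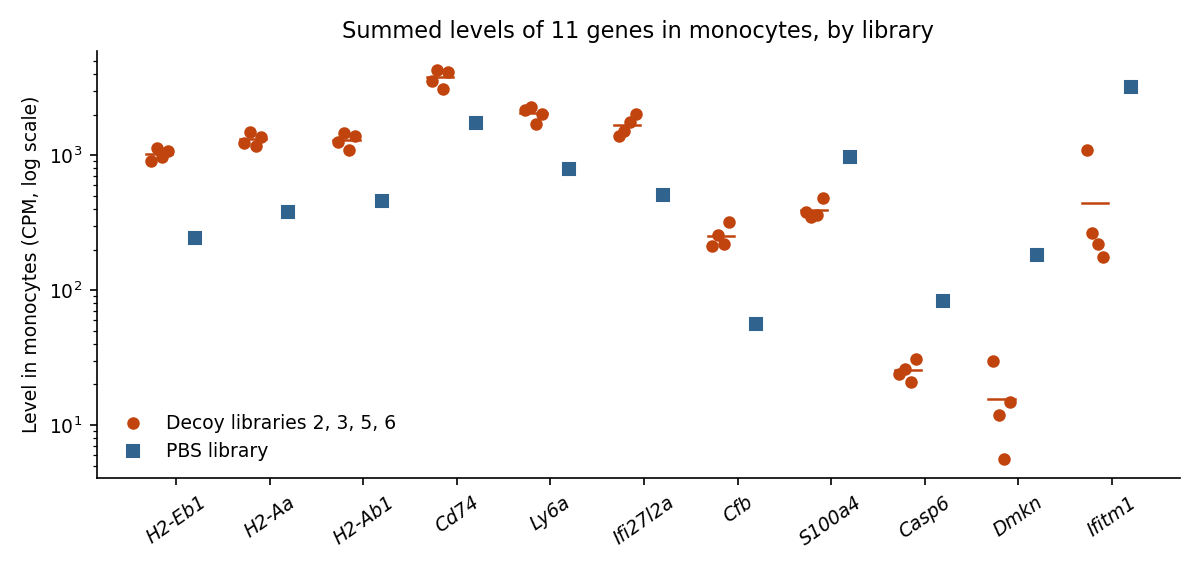
Summed level of 11 genes in monocytes, in CPM on a log axis, with the 4 Decoy libraries as circles (line, Decoy mean) left of the PBS library as a square. H2-Eb1 stood at 905 to 1134 CPM in Decoy, against 244 CPM in PBS, whereas S100a4, Casp6, Dmkn and Ifitm1 lay below PBS in every Decoy library.

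Both called genes lie in the major histocompatibility region of chromosome 17. In the GRCm38 annotation H2-Eb1 (ENSMUSG00000060586) spans chr17:34305867-34316674 on the plus strand, and H2-Aa (ENSMUSG00000036594) spans chr17:34282744-34287823 on the minus strand. MHC class II promoters are known for an X box, bound by the RFX complex, and a Y box, an inverted CCAAT element bound by NF-Y, on which Ciita acts. RefSeq promoter windows of GRCm38.p6, from 250 bases before to 50 after each start, were available for 10 of the 13 genes of the MHC class II list. They were searched on both strands for the X box as AGNNACNGATG and for the Y box as ATTGG, 2 motifs that do not overlap in the windows shown. The X box letters occur in 0.968% of 32851 windows, the Y box letters in 37.4% and both in 0.387%. The windows of the called genes are shown because their levels moved together, and that of H2-DMb1 as a tested gene with both motifs near the spacing of H2-Eb1. Of the 10 genes, 4 had the X box letters, 8 had the Y box letters and 4 had both, namely H2-Eb1, H2-DMb1, H2-Eb2 (22 bases between them) and H2-Oa (87 bases). Capitals mark the motifs, 5' to 3' on the strand of the gene, and CCAAT in capitals is the Y box on the opposite strand.
H2-Eb1: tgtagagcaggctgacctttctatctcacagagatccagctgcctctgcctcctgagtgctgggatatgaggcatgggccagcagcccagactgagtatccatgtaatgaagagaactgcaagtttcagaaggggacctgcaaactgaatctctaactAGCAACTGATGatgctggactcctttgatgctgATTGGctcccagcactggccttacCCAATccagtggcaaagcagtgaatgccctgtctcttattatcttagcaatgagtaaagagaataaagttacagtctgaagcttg
H2-Aa: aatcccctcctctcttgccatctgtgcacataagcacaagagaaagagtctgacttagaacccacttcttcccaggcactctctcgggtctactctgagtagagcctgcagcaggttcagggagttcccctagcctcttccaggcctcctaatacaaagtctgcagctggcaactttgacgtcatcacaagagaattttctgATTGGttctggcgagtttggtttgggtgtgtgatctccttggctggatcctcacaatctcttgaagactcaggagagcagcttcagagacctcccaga
H2-DMb1: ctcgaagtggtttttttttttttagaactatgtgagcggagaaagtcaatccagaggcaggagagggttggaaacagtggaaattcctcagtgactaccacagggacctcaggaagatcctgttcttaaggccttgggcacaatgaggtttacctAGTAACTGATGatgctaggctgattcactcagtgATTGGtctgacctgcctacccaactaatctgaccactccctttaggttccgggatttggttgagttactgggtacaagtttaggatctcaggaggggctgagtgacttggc
These windows lie at chr17:34305617-34305916 on the plus strand for H2-Eb1, chr17:34287774-34288073 on the minus strand for H2-Aa and chr17:34152941-34153240 on the plus strand for H2-DMb1. In H2-Eb1 the X box begins at base 159 and the first Y box at base 192, with 22 bases between them. H2-DMb1 has the X box at base 156 and the Y box at base 190, with 23 bases between them. H2-Aa has a Y box at base 203, and the letters searched for the X box are not in its window. A match describes letters only and was not tied to any binding measurement.

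The partner chains and the loading machinery of MHC class II did not pass the test, and most lay above PBS in every Decoy library. H2-Ab1, the beta chain of I-A, stood at 1248, 1453, 1101 and 1385 CPM in Decoy monocytes, against 459 CPM in PBS monocytes (log2 fold change 1.5, SE 0.188, edgeR adjusted p = 0.0513). Cd74, the invariant chain that guards the peptide groove, was at 3552, 4267, 3121 and 4137 CPM in Decoy, against 1738 CPM in PBS (log2 fold change 1.12, SE 0.186, edgeR adjusted p = 0.0959). In both cases every Decoy library was at least 1.5 times above PBS. H2-DMb1 and H2-DMa encode the H2-M exchange factor, which loads the peptide. H2-DMb1 was at 268, 329, 210.2 and 248 CPM in Decoy, against 138 CPM in PBS, and H2-DMa at 400.3, 389.8, 323 and 399 CPM in Decoy, against 278 CPM in PBS. H2-DMb2, a second beta chain gene of H2-M, was at 17.8, 16.8, 31.1 and 18.5 CPM in Decoy, against 0 UMIs in PBS, so that the Decoy mean was at least 9.56-fold higher than the floor of 3 UMIs in the PBS library. Ciita, the coactivator, was at 106, 109, 68.9 and 90.7 CPM in Decoy, against 60.9 CPM in PBS (log2 fold change 0.61, SE 0.274, edgeR adjusted p = 0.493). Ctss, the protease that trims the invariant chain, was at 1187, 1335, 1077 and 1523 CPM in Decoy, against 1062 CPM in PBS, and Ifi30, a lysosomal thiol reductase gene, at 1353 to 1688 CPM in Decoy, against 1642 CPM in PBS, which lay inside the Decoy range.

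Of the 13 MHC class II genes listed, 12 passed the filter on low counts, with H2-Eb2 left out. Among these, 2 were called higher, none was called lower, and 11 lay above PBS in every Decoy library, beside 26.2% of all genes tested that did so. The median log2 fold change of the 12 was 1.31, also with H2-DMb2 and H2-Ob (0 UMIs in PBS) at their lower bounds, beside 0.02 for all genes tested. After thinning, H2-Ab1 was found in 87.7%, 86.0%, 75% and 82.7% of Decoy members, against 41.8% of PBS members. In neutrophil-like cells, which should lack it, the share was 0.971%, 2.86%, 2.63% and 3.08% in Decoy, against 0 of 40 cells in PBS.

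Marker lists of other antigen-presenting cells summed above PBS in every Decoy library, while single markers did not always lie above it. The 10 B and plasma cell markers, all of which passed the filter, summed to 183 to 1088 CPM in Decoy monocytes, against 88.0 CPM in PBS monocytes, with 5 above PBS in every Decoy library, beside 26.2% of all genes tested, and none called. Cd79a, a defining chain of the B cell receptor, was at 0, 23.7, 78.3 and 62.7 CPM in Decoy, against 0.734 CPM in PBS, and Ms4a1, the gene for CD20, at 0.405, 18.1, 42.3 and 25.8 CPM in Decoy, against 1.47 CPM in PBS. Ighm, the IgM heavy chain gene, was at 147, 227, 273 and 229 CPM in Decoy, against 76.3 CPM in PBS, and Igkc at 27.1, 156, 499 and 196 CPM in Decoy, against 4.40 CPM in PBS. Decoy 2 had the lowest level of all 4 genes among the Decoy libraries, with Cd79a and Ms4a1 below PBS and Ighm and Igkc above it. The 10 macrophage markers outside the rule, of which 8 passed the filter, summed to 188 to 707 CPM in Decoy, against 175 CPM in PBS, with 5 above PBS in every Decoy library, beside the same share of all genes tested. Hmox1, a haem-degrading enzyme gene of red pulp macrophages, was at 55.9, 392, 306 and 258 CPM in Decoy, against 61.6 CPM in PBS, and Adgre1, the gene for F4/80, at 71.2, 102, 64.4 and 132 CPM in Decoy, against 49.1 CPM in PBS. The 8 conventional dendritic markers, 5 of which passed, summed to 55.0 to 86.2 CPM in Decoy, against 38.9 CPM in PBS, and the 8 plasmacytoid dendritic markers, 4 of which passed, to 86.2 to 136 CPM in Decoy, against 66.0 CPM in PBS. Their part in the result was not tested beyond leaving cells out. In 1 alternative, members were left out if they held a UMI of B cell genes, T cell genes, Kit or the erythroid gene Alas2, or at least 3 haemoglobin UMIs. The haemoglobin limit alone was met by 48 of the 55 PBS members, against 14, 5, 25 and 17 Decoy members. Only 5 PBS members were left, and H2-Eb1 and H2-Aa were both called (edgeR adjusted p = 4.36e-06 for each, within a range of 3.50e-24 to 0.0750 for H2-Eb1 and of 4.61e-19 to 0.0949 for H2-Aa over 18 alternatives). Over the same alternatives the fitted log2 fold change ran from 1.55 to 12.79 for H2-Eb1 and from 1.35 to 6.52 for H2-Aa, with the highest values where 5 PBS members were left, so that those values rest on few PBS cells. With the members of highest doublet score left out, both were called as well (edgeR adjusted p = 0.000853 for H2-Eb1). With only members of at least 40 Lyz2 UMIs per 10000 kept, H2-Eb1 was called and H2-Aa was not. That alternative was added after the data were seen.

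**Figure D2:**
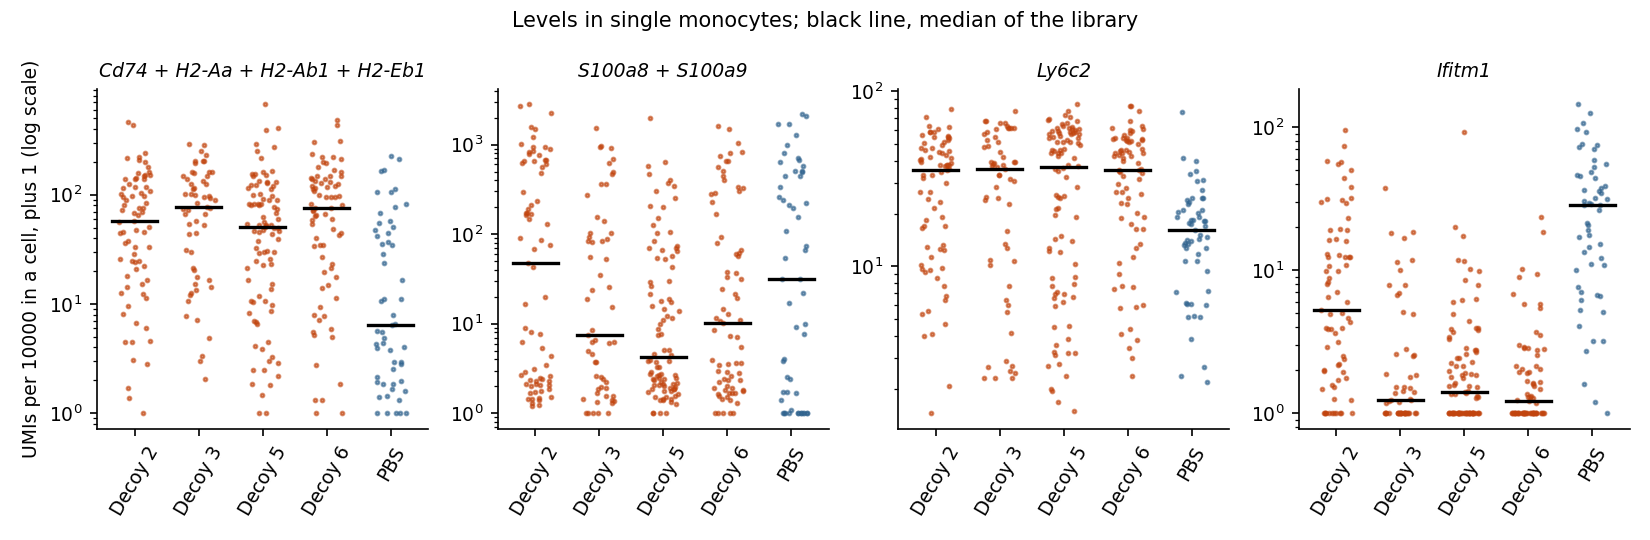
Level in single monocytes, as UMIs per 10000 plus 1 on a log axis, with 1 point per cell, the 4 Decoy libraries left of PBS and a black line at each library's median. The sum of 4 MHC class II genes has medians of 49.3 to 76.9 in Decoy, against 5.42 in PBS. S100a8 and S100a9 together spread widely in every library, with medians of 3.23 to 47.1 in Decoy, against 30.8 in PBS. Their upper quartile is 52.3 to 627 in Decoy, against 472 in PBS.

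MHC class II varied from cell to cell in all libraries. Cd74, H2-Aa, H2-Ab1 and H2-Eb1 together had a median of 56.7, 76.9, 49.3 and 74.1 UMIs per 10000 in Decoy members, against 5.42 in PBS members. The lower quartile was 17.2, 19.3, 10.5 and 19.6 in the Decoy libraries, against 1.06 in PBS, and the upper quartile 117, 138, 99.1 and 135 in Decoy, against 45.2 in PBS. The PBS library therefore held members at the Decoy level, but they were the upper part of its distribution. The alarmin genes S100a8 and S100a9, which are abundant in neutrophils and present in classical monocytes, had a median of 47.1, 6.50, 3.23 and 9.11 UMIs per 10000 in Decoy, against 30.8 in PBS. At 100 or more per 10000 there were 32, 15, 15 and 19 Decoy members, against 24 PBS members, which is 43.8%, 26.3%, 16.3% and 25.3% of Decoy members, against 43.6% of PBS members. This share was larger in PBS than in Decoy 3, 5 and 6 and about that of Decoy 2. Within each library S100a8 and S100a9 were negatively correlated with MHC class II over cells, with a rank correlation of -0.56, -0.43, -0.37 and -0.27 in Decoy, against -0.50 in PBS. Chil3, which encodes the chitinase-like protein Ym1, was positively correlated with S100a8 and S100a9, with a rank correlation of 0.85, 0.81, 0.76 and 0.77 in Decoy, against 0.62 in PBS. The cells of a library share its depth, so these correlations describe the libraries. Among members under 100 per 10000, H2-Eb1 had a log2 fold change of 1.80 and the gene H2-Eb1 was not called (edgeR adjusted p = 0.0550, and 0.0949 for H2-Aa), within the ranges given above; the only gene called there was Dmkn, lower in Decoy.

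A further 8 genes shared the next lowest adjusted p with H2-Ab1 and were chosen after their values were seen; none passed the threshold (edgeR adjusted p = 0.0513 for each). Ly6a, which encodes the interferon-induced surface protein Sca-1, stood at 2158, 2285, 1711 and 2011 CPM in Decoy monocytes, against 789 CPM in PBS monocytes (log2 fold change 1.37). Ifi27l2a, a type I interferon target, was at 1384, 1515, 1767 and 2027 CPM in Decoy, against 511 CPM in PBS (1.71), and Cfb, complement factor B, at 211, 258, 221 and 318 CPM in Decoy, against 56.5 CPM in PBS (2.15). For these 3 genes every Decoy library was more than 2 times above PBS. Casp6, an executioner caspase gene, was at 23.9, 26.2, 21.0 and 31.1 CPM in Decoy, against 82.9 CPM in PBS (-1.71). S100a4, a calcium-binding protein gene of motile myeloid cells, was at 376, 349, 362 and 478 CPM in Decoy, against 968 CPM in PBS (-1.31). Dmkn, the dermokine gene, was at 30.0, 11.8, 5.62 and 14.8 CPM in Decoy, against 181 CPM in PBS (-3.52). These 3 lay below PBS in every Decoy library, as did Gm5150 at 38.2 to 43.0 CPM in Decoy, against 91.7 CPM in PBS (-1.19), and the ribosomal protein gene Rpl10 at 1792 to 1979 CPM in Decoy, against 3305 CPM in PBS (-0.81). After thinning, Ly6a was found in 98.6%, 93.0%, 93.5% and 100% of Decoy members, against 67.3% of PBS members, and in 5.83%, 11.4%, 8.77% and 4.62% of Decoy neutrophil-like cells, against 0% of PBS neutrophil-like cells.

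The MHC class I genes present peptides from within the cell. All 18 on the list passed the filter, none was called in either direction, and 17 lay above PBS in every Decoy library, beside 26.2% of all genes tested, with a median log2 fold change of 0.49. B2m, the light chain, was at 2804, 3395, 2688 and 3339 CPM in Decoy monocytes, against 2324 CPM in PBS monocytes (log2 fold change 0.40, SE 0.159, edgeR adjusted p = 0.459). H2-D1, a classical heavy chain, was at 1573, 1894, 1672 and 2048 CPM in Decoy, against 1402 CPM in PBS, and H2-K1, the other one, at 1453, 1789, 1581 and 2006 CPM in Decoy, against 946 CPM in PBS (log2 fold change 0.85, SE 0.189, edgeR adjusted p = 0.19). Every Decoy library lay above PBS for these 3 genes, and none passed the test. H2-Q7, a nonclassical heavy chain chosen after its values were seen, was at 153, 239.7, 215 and 255 CPM in Decoy, against 48.4 CPM in PBS (log2 fold change 2.15, SE 0.321, edgeR adjusted p = 0.0694); it is nearly identical to H2-Q6, and reads may be split between them.

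Interferon genes were measured as 2 lists, and none of their members was called. Of 35 type I interferon genes that passed the filter of 36, 20 lay above PBS in every Decoy library and 3 below, beside 26.2% and 24.8% of all genes tested. Their median log2 fold change was 0.37. Ifitm3, an antiviral membrane protein gene, was at 3582, 3383, 2801 and 3788 CPM in Decoy, against 3861 CPM in PBS, and Ly6e at 2141, 2286, 2084 and 2435 CPM in Decoy, against 1951 CPM in PBS. Ifitm3 thus lay below PBS in every Decoy library and Ly6e above it in every one. Both stayed nearer to PBS than Ifi27l2a above. Irf7, the interferon-induced transcription factor that amplifies the response, was at 148, 137, 147 and 179.8 CPM in Decoy, against 82.9 CPM in PBS (log2 fold change 0.88, SE 0.205, edgeR adjusted p = 0.21), and turned to -0.14 with members holding UMIs of other lineages left out. Of 19 interferon gamma genes tested of 20, 7 lay above PBS in every Decoy library and none below, beside the same shares of all genes tested, with a median of 0.48. Gbp2, a guanylate-binding protein gene, was at 717, 727, 303 and 443 CPM in Decoy, against 315 CPM in PBS, and Iigp1, an immunity-related GTPase gene, at 499, 559.8, 327 and 599 CPM in Decoy, against 246 CPM in PBS. Decoy 5 had the lowest level of both genes among the Decoy libraries, and for Gbp2 it lay below PBS.

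**Figure D3:**
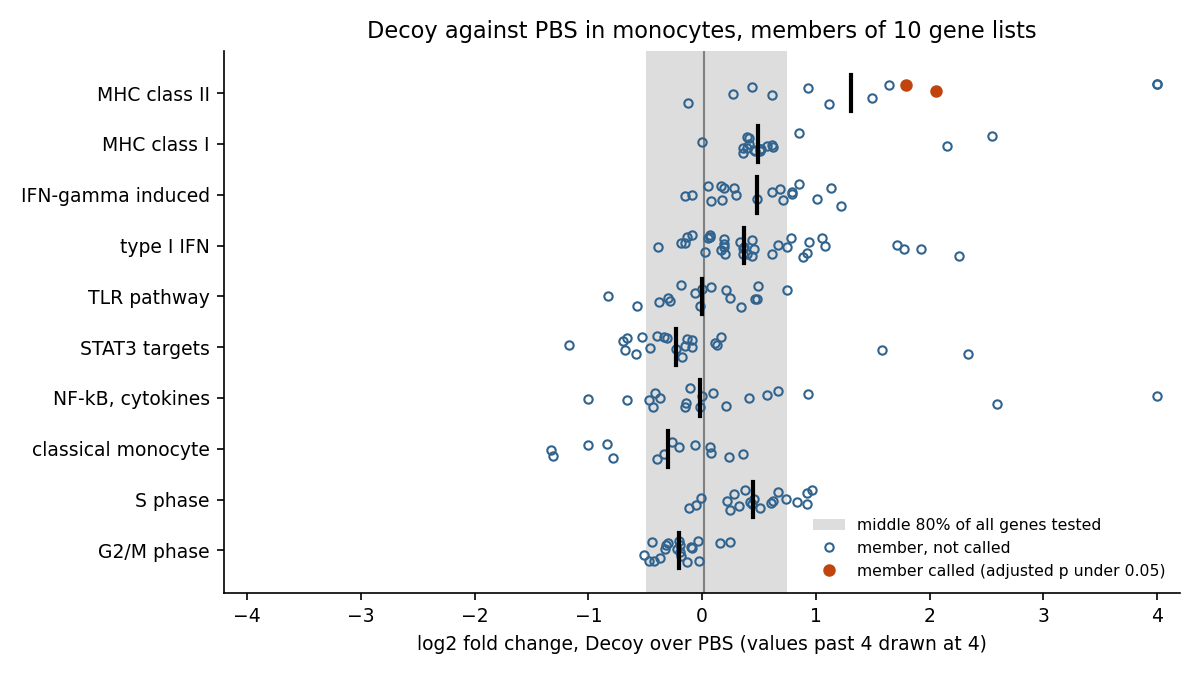
Log2 fold change of Decoy over PBS in monocytes for the members of 10 gene lists that passed the filter, with called genes filled, the list's median as a black bar, and the middle 80% of all genes tested in grey; values past 4 are drawn at 4. MHC class II has the highest median drawn, 1.31, and the only called members, H2-Eb1 and H2-Aa.

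The transcription factor Irf8, which directs monocyte and dendritic cell fate and is named in the title of the study, stood at 232, 259.7, 322 and 305 CPM in Decoy monocytes, against 137 CPM in PBS monocytes. Every Decoy library lay above PBS, with a log2 fold change of 1.03 (SE 0.224) that did not pass the test (edgeR adjusted p = 0.185). Stat3, the target of the decoy, was at 91.5, 119.6, 97.4 and 109 CPM in Decoy, against 92.4 CPM in PBS (log2 fold change 0.17, SE 0.195, edgeR adjusted p = 0.814). Socs3, a feedback inhibitor that STAT3 induces, was at 31.2, 49.8, 45.0 and 53.2 CPM in Decoy, against 71.2 CPM in PBS (log2 fold change -0.68, SE 0.271, edgeR adjusted p = 0.454). PBS lay inside the Decoy range for Stat3 and above it for Socs3. Of 21 STAT3 pathway genes tested of 22, none was called, 2 lay above PBS in every Decoy library and 8 below, beside 26.2% and 24.8% of all genes tested, with a median of -0.23. Among them Cebpb, a myeloid transcription factor, was at 451, 609.6, 520.3 and 800.3 CPM in Decoy, against 962 CPM in PBS, and Mcl1, a survival gene of the Bcl2 family, at 289, 373, 288 and 319 CPM in Decoy, against 352 CPM in PBS.

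Tlr9, the receptor for the CpG part, was close to the detection limit, at 0.405, 2.49, 1.498 and 1.05 CPM in Decoy monocytes, against 0 UMIs in PBS, and did not pass the filter. Of the 18 genes of the Toll-like receptor list, 17 were tested, none was called, 6 lay above PBS in every Decoy library and 5 below, beside 26.2% and 24.8% of all genes tested. Unc93b1, which carries endosomal Toll-like receptors to their compartment, was at 287, 318, 260.0 and 323 CPM in Decoy, against 212 CPM in PBS, and the adaptor Myd88 at 102, 120.2, 92.9 and 117 CPM in Decoy, against 133 CPM in PBS. They thus lay on opposite sides of PBS. Of 19 NF-kB and cytokine genes tested of 24, none was called, 4 lay above PBS in every Decoy library and 5 below, beside the same shares of all genes tested, with a median of -0.02. Sod2, a mitochondrial superoxide dismutase gene, was at 152, 295, 140.5 and 225 CPM in Decoy, against 222 CPM in PBS, and Nfkbia, the inhibitor of NF-kB, at 82.6, 122, 77.9 and 119 CPM in Decoy, against 200.3 CPM in PBS (log2 fold change -1.01, SE 0.254, edgeR adjusted p = 0.243). Among 12 chemokine ligands tested of 17 the median was 0.76 with none called. Ccl5 ranged most widely, at 105, 771, 176 and 1109 CPM in Decoy, against 28.6 CPM in PBS, and Cxcl9, an interferon gamma target, was at 302, 709.9, 81.3 and 441 CPM in Decoy, against 233 CPM in PBS.

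Genes typical of classical monocytes, other than those of the rule, were a list of 15. Of the 14 tested, none was called, none lay above PBS in every Decoy library and 8 lay below in every one, beside 26.2% and 24.8% of all genes tested, with a median log2 fold change of -0.30. The list summed to 24379 to 32449 CPM in Decoy monocytes, against 28942 CPM in PBS monocytes, inside the Decoy range. Lyz2 was at 11178, 13925, 13163 and 15744 CPM in Decoy monocytes, against 11455 CPM in PBS monocytes. Plac8, a small cysteine-rich protein gene of Ly6C-high monocytes, was at 4885, 4688, 4002 and 4631 CPM in Decoy, against 5466 CPM in PBS, below PBS in all 4 libraries. Hp, the haptoglobin gene, and Vcan, the versican gene, were chosen after their values were seen. Hp was at 624, 638, 544 and 788 CPM in Decoy, against 1119 CPM in PBS (log2 fold change -0.79, edgeR adjusted p = 0.215), and Vcan at 238, 252, 213 and 342 CPM in Decoy, against 465 CPM in PBS (-0.83, edgeR adjusted p = 0.273). Of 14 nonclassical, Ly6C-low monocyte genes tested of 15, 4 lay above PBS in every Decoy library and 3 below, beside the same shares of all genes tested, with none called and a median of 0.29. Pou2f2, a transcription factor of that lineage, was at 144, 249.7, 226 and 259.9 CPM in Decoy, against 140.1 CPM in PBS, and Pglyrp1, a peptidoglycan recognition protein gene, at 127, 72.9, 61.4 and 176 CPM in Decoy, against 189 CPM in PBS.

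Each count in this paragraph stands beside 26.2% of all genes tested above PBS in every Decoy library and 24.8% below. Of 14 genes of monocyte differentiation to macrophages and dendritic cells tested of 16, 6 lay above PBS in every Decoy library and 3 below, with none called and a median of 0.41. Cd68, a lysosomal glycoprotein gene of phagocytes, was at 223, 258, 243 and 279 CPM in Decoy monocytes, against 208 CPM in PBS monocytes, and Apoe at 266, 82.2, 202 and 293 CPM in Decoy, against 144 CPM in PBS. Members of this list went both ways: Itgax, the gene for CD11c, was at 13.8, 18.7, 20.2 and 27.9 CPM in Decoy, against 1.47 CPM in PBS (2 UMIs), whereas the lipid receptor gene Trem2 was at 28.3, 25.5, 20.2 and 15.8 CPM in Decoy, against 83.6 CPM in PBS (log2 fold change -1.89, edgeR adjusted p = 0.0558); both were chosen after their values were seen. Of 16 myeloid transcription factors tested of 20, 1 lay above PBS in every Decoy library and 5 below, with a median of -0.04. Zeb2, needed for monocyte maturation, was at 455, 670.0, 487 and 642 CPM in Decoy, against 507 CPM in PBS. Of 11 genes used for suppressive myeloid cells tested of 16, 2 lay above and 4 below, with a median of -0.17. S100a8 was at 21649.7, 12941, 7124 and 14135 CPM in Decoy, against 15683 CPM in PBS, and S100a9 at 10959, 4592, 3315 and 7947 CPM in Decoy, against 13811 CPM in PBS, with Decoy 2 highest and Decoy 5 lowest of the Decoy libraries in both. The 12 neutrophil markers summed to 12150 to 35028 CPM in Decoy, against 31857 CPM in PBS. Of 15 chemokine receptor and adhesion genes tested of 18, 4 lay above and 2 below, with a median of 0.02, and of 18 Fc receptor and phagocyte genes tested of 19, 7 lay above and 4 below, with a median of 0.15. Itgb2, the beta-2 integrin gene, was at 186 to 269.6 CPM in Decoy, against 242 CPM in PBS, Fcer1g, an Fc receptor adaptor, at 1872 to 3116 CPM in Decoy, against 2186 CPM in PBS, and Cyba, an oxidase subunit gene, at 1616 to 2273 CPM in Decoy, against 1825 CPM in PBS. For these 3 genes PBS lay inside the Decoy range, and no member of the 4 lists was called.

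Housekeeping and cycling genes divided by list, with no member called. Each count in this paragraph stands beside 26.2% of all genes tested above PBS in every Decoy library and 24.8% below. All 20 S phase genes were tested, and 14 lay above PBS in every Decoy library and none below, with a median log2 fold change of 0.45. Pcna, the replication clamp, was at 154, 182, 215 and 187 CPM in Decoy monocytes, against 117 CPM in PBS monocytes (log2 fold change 0.66, SE 0.213, edgeR adjusted p = 0.35), and Dut, a nucleotide pool enzyme gene, at 161, 129, 193 and 135 CPM in Decoy, against 167 CPM in PBS. Of the 20 genes of G2 and M phase, none lay above PBS in every Decoy library and 11 lay below, with a median of -0.20. Top2a, a topoisomerase gene, was at 511, 387, 544 and 554 CPM in Decoy, against 569 CPM in PBS, and Ube2c, a mitotic ubiquitin enzyme gene, at 323, 269.6, 365 and 378 CPM in Decoy, against 431 CPM in PBS. The medians of the 2 phases thus lay on opposite sides of 0. Of 18 immediate early and heat shock genes, 7 lay above and 4 below, with a median of 0.41; the chaperone gene Hspa8 was at 2315 to 2634 CPM in Decoy, against 2035 CPM in PBS, and Hsp90aa1 at 398 to 699 CPM in Decoy, against 705 CPM in PBS. Of 17 glycolysis and hypoxia genes tested of 18, 2 lay above and 8 below, with a median of -0.13; Gapdh was at 2169.8 to 2347 CPM in Decoy, against 2471 CPM in PBS, and Pkm at 687 to 856 CPM in Decoy, against 749.7 CPM in PBS.

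The other 2 lists concern RNA composition. All 13 tested genes of 14 with short transcripts from the respiratory chain and ribosome lay above PBS in every Decoy library, beside 26.2% of all genes tested. None was called and the median was 0.52. Rpl41 was at 4491 to 5856 CPM in Decoy monocytes, against 4068 CPM in PBS monocytes, and Rps29 at 4028 to 5695 CPM in Decoy, against 3228 CPM in PBS. Among 78 cytosolic ribosomal protein genes, a list drawn up after the data were seen, 11 lay above and 56 below PBS in every Decoy library, beside 26.2% and 24.8% of all genes tested. None was called and the median was -0.32. RNA quality measured as the mitochondrial share was similar, with a median of 3.49%, 3.62%, 3.63% and 3.44% of UMIs in Decoy members, against 3.87% in PBS members. The number of genes in a median member was 4674, 4445, 4483.5 and 4315 in Decoy, against 3858 in PBS. The part of these measures in the lists above was not tested.

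Ifitm1, which encodes an interferon-induced transmembrane protein and was chosen after its values were seen, stood at 1100.5, 266, 218 and 176 CPM in Decoy monocytes, against 3176 CPM in PBS monocytes. Decoy 2 lay well above the other Decoy libraries, and all 4 lay below PBS, with a log2 fold change of -2.85 (SE 0.748) that did not pass the test (edgeR adjusted p = 0.247). Per cell the median was 4.22, 0.231, 0.404 and 0.227 UMIs per 10000 in Decoy, against 27.3 in PBS, so the difference was not confined to a few cells. Decoy 2 and PBS were also the libraries with the largest shares of cells high in mast cell genes. In those cells Ifitm1 was at 4.70, 28.2, 3804 and 7.73 CPM in Decoy, where Decoy 5 held 13 such cells, against 4.27 CPM in PBS; the part of this class in the levels of the monocytes was not tested. Saa3, a serum amyloid gene induced in activated macrophages and likewise chosen after its values were seen, was at 1528, 4456, 3376 and 4453 CPM in Decoy, against 792 CPM in PBS (log2 fold change 2.12, SE 0.54, edgeR adjusted p = 0.243). Lpl, the lipoprotein lipase gene, was at 152, 362, 269 and 324 CPM in Decoy, against 48.4 CPM in PBS (2.51, SE 0.483, edgeR adjusted p = 0.153). For both genes Decoy 2 was the lowest Decoy library and still lay above PBS.

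Markers of the remaining cell types varied between libraries. The 10 erythroid markers summed to 63.8 to 2069 CPM in Decoy monocytes, against 3820 CPM in PBS monocytes, with 6 of 10 below PBS in every Decoy library, beside 24.8% of all genes tested. Hbb-bs, a beta globin gene, was at 1048, 899, 105 and 21.1 CPM in Decoy, against 2220.5 CPM in PBS, and Hba-a1, an alpha globin gene, at 515, 470.1, 35.6 and 14.2 CPM in Decoy, against 582 CPM in PBS. The 10 T and NK cell markers, 4 of which were tested, summed to 3.64 to 780 CPM in Decoy, against 5.13 CPM in PBS; the high value was Decoy 3, where 1 member held 5 or more UMIs of the granzyme gene Gzma. Nkg7, a granule membrane gene of killer cells, was at 110.2 CPM in Decoy 3 and 3.37 to 4.74 CPM in the other Decoy libraries, against 3.67 CPM in PBS. The mast cell-like markers outside the rule, 4 of 10 tested, summed to 8.72 to 128 CPM in Decoy, against 78.5 CPM in PBS; Il1rl1, the IL-33 receptor gene, was at 27.9 CPM in Decoy 2 and 0.375 to 2.64 CPM in Decoy 3, 5 and 6, against 16.9 CPM in PBS. The 10 progenitor markers, 9 of which were tested, summed to 3576 to 3883 CPM in Decoy, against 3815 CPM in PBS; Hmgb2, a chromatin protein gene, was at 2267 to 2768 CPM in Decoy, against 2194 CPM in PBS, and Calr, the calreticulin gene, at 644 to 698 CPM in Decoy, against 778 CPM in PBS. Of the dendritic markers, Batf3 was at 23.2 to 40.5 CPM in Decoy, against 35.9 CPM in PBS, Tcf4 at 40.1 to 70.6 CPM in Decoy, against 46.2 CPM in PBS, and Cox6a2 at 20.6 to 51.7 CPM in Decoy, against 6.60 CPM in PBS.

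The Decoy effect was then compared between the monocytes and the other classes of the same libraries, with the difference itself tested in a fit that kept the library as a block. C1q-high cells were those with at least 20 UMIs per 10000 of C1qa, C1qb and C1qc (63, 252, 461 and 260 cells in Decoy, against 18 in PBS). Granule-high cells were those with at least 20 per 10000 of Mpo, Elane, Prtn3 and Ctsg (72, 47, 96 and 58 cells in Decoy, against 40 in PBS). Neutrophil-like cells had at least 100 per 10000 of S100a8 and S100a9, at least 2 UMIs of Csf3r, Retnlg, Cxcr2 and Mmp8 together, and no UMI of Csf1r (109, 53, 168 and 93 cells in Decoy, against 45 in PBS). C1q-high cells also had at least 2 UMIs of Csf1r and Adgre1 together. These classes, unlike the monocytes, were also held to fewer than 2 UMIs of the B cell genes Cd79a and Cd79b together. The part of this limit in the differences below was not tested. Levels in this comparison are CPM by the total of a class alone. H2-Eb1 stood at 907, 1129.6, 987 and 1056 CPM in Decoy monocytes, against 237 CPM in PBS monocytes, but at 1908, 1551, 1328 and 2027 CPM in Decoy C1q-high cells, against 3275 CPM in PBS C1q-high cells. In granule-high cells it was at 139, 242, 179.6 and 161 CPM in Decoy, against 6.70 CPM in PBS, and in B cell-like cells at 2795, 2360.5, 2320.0 and 2851 CPM in Decoy, against 2179 CPM in PBS. So all Decoy libraries lay above PBS in monocytes, granule-high cells and B cell-like cells, and below PBS in C1q-high cells. In neutrophil-like cells H2-Eb1 was at 3.09, 106, 21.6 and 9.37 CPM in Decoy, against 4.55 CPM in PBS, which overlapped.

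**Figure D4:**
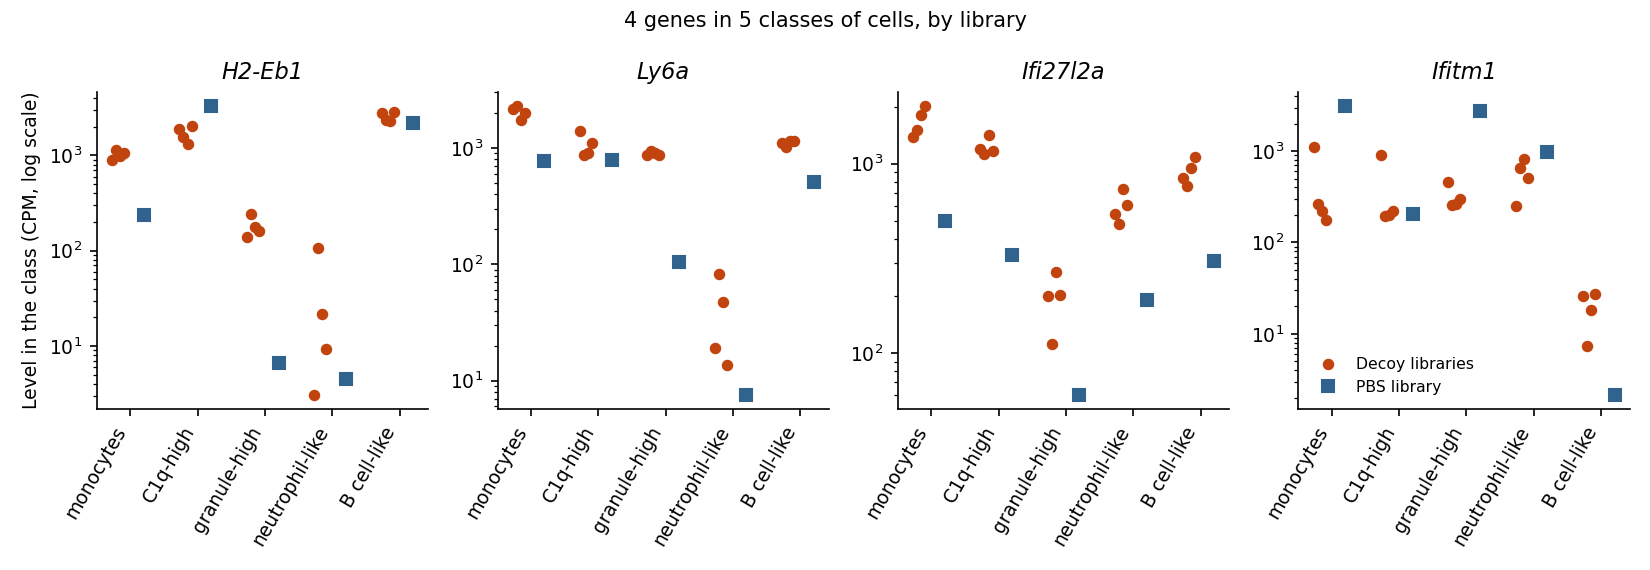
Level of H2-Eb1, Ly6a, Ifi27l2a and Ifitm1 in monocytes, C1q-high, granule-high, neutrophil-like and B cell-like cells, in CPM by the class total on a log axis, with the 4 Decoy libraries as circles left of PBS as a square. H2-Eb1 lies above PBS in Decoy monocytes, granule-high and B cell-like cells and below PBS in Decoy C1q-high cells. Ifi27l2a lies above PBS in every class drawn.

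Against C1q-high cells the Decoy effect differed for 9 of 10728 genes, 0.0839% of those tested, 7 of them with the more positive change in monocytes. Of these, 4 were MHC class II genes. The difference of the log2 fold changes, monocytes minus C1q-high cells, was 3.05 for H2-Eb1 (SE 0.249), 2.71 for H2-Aa (SE 0.210), 2.44 for H2-Ab1 (SE 0.206) and 1.92 for Cd74 (SE 0.159; edgeR adjusted p = 0.000774 for each). Ifitm1 differed the other way, by -3.79 (SE 0.298, edgeR adjusted p = 0.000774). It was at 1102, 265, 223 and 174 CPM in Decoy monocytes, against 3084 CPM in PBS monocytes, and at 898, 193, 201 and 220.0 CPM in Decoy C1q-high cells, against 204 CPM in PBS C1q-high cells. The PBS side of this comparison rests on 18 C1q-high cells; leaving out single Decoy libraries gave 8 to 22 genes, with 22 reached without Decoy 2.

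Against granule-high cells, a comparison added after the data were seen, the Decoy effect differed for 10 of 10370 genes, 0.0964% of those tested. The same 4 MHC class II genes were among them with the sign turned, since their change was larger in granule-high cells. The difference, monocytes minus granule-high cells, was -2.71 for H2-Eb1 (SE 0.333), -2.06 for H2-Aa (SE 0.248; edgeR adjusted p = 0.00261 for both), -2.02 for H2-Ab1 (SE 0.276, edgeR adjusted p = 0.00524) and -2.31 for Cd74 (SE 0.215, edgeR adjusted p = 0.00035). Ly6a behaved likewise, at 872, 937, 906 and 866 CPM in Decoy granule-high cells, against 105 CPM in PBS granule-high cells, and at 2161, 2276, 1749 and 1987 CPM in Decoy monocytes, against 766 CPM in PBS monocytes (difference -1.78, SE 0.182, edgeR adjusted p = 0.000545). S100a4 had the more negative change in monocytes (difference -1.62, SE 0.205, edgeR adjusted p = 0.00261). For Ifitm1 the difference was -0.17 (SE 0.455, edgeR adjusted p = 0.986), with 459, 255, 262 and 296 CPM in Decoy granule-high cells, against 2725 CPM in PBS granule-high cells. Leaving out single Decoy libraries gave 7 to 18 genes, with 18 reached without Decoy 3.

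Against neutrophil-like cells the Decoy effect differed for 2 of 9876 genes, 0.0203% of those tested, and neither was an MHC class II gene. For H2-Eb1, H2-Aa, H2-Ab1 and Cd74 this test could not decide. PBS neutrophil-like cells held 3, 0, 2 and 3 UMIs of them, and the SEs were 1.93, 5.84, 2.24 and 1.58. Lgals1, which encodes galectin-1, differed by 3.77 (SE 0.493) and Asprv1, a skin aspartic protease gene also found in neutrophils, by -5.71 (SE 0.749; edgeR adjusted p = 0.0382 for both). Both calls were lost without Decoy 6, when no gene was called and 462 had an unadjusted p under 0.05. Monocyte genes were higher in the PBS neutrophil-like cells than in the Decoy ones. Ccr2 was at 0 to 9.60 CPM in Decoy, against 74.2 CPM in PBS, and Fn1 at 0 to 6.72 CPM in Decoy, against 57.6 CPM in PBS. The part of this in the differences from neutrophil-like cells was not tested. For Irf8 no difference of the Decoy effect passed the test against any of the 3 classes. It was at 248, 235, 239.9 and 225 CPM in Decoy C1q-high cells, against 157 CPM in PBS, and at 256, 371, 382 and 331 CPM in Decoy granule-high cells, against 136 CPM in PBS. In neutrophil-like cells Irf8 went the other way, at 1.44 to 4.43 CPM in Decoy, against 10.6 CPM in PBS (7 UMIs). The difference there, monocytes minus neutrophil-like cells, was 3.02 (SE 0.678). No difference passed the test for Ifi27l2a either, which lay above PBS in every Decoy library of all 5 classes compared, with 481 to 734 CPM in Decoy neutrophil-like cells, against 189 CPM in PBS, and 762 to 1082 CPM in Decoy B cell-like cells, against 306 CPM in PBS.

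The other classes give a scale for genes that did not choose their cells. Fn1 was at 167, 193, 389.6 and 447 CPM in Decoy monocytes, against 226 CPM in PBS monocytes, and at 101, 55.7, 119.7 and 87.6 CPM in Decoy granule-high cells, against 156 CPM in PBS granule-high cells. It was at 15.0 to 70.8 CPM in Decoy C1q-high cells, against 52.2 CPM in PBS, and at 0 to 6.72 CPM in Decoy neutrophil-like cells, against 57.6 CPM in PBS. Fn1 was thus highest in monocytes, among these 4 classes, in each of the 5 libraries. Plac8 was at 4092 to 4892 CPM in Decoy monocytes, against 5307 CPM in PBS monocytes, near its level in granule-high cells, 3888 to 4898 CPM in Decoy, against 3761 CPM in PBS. Ly6c2 was at 3447, 3868, 4176 and 3534 CPM in Decoy granule-high cells, against 1624 CPM in PBS granule-high cells, and at 1618 to 1901 CPM in Decoy neutrophil-like cells, against 1362 CPM in PBS. It lay above PBS in every Decoy library of both classes, as in the monocytes. As the rule chose these cells by their genes, these contrasts are a description.

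The share of monocytes was higher in each of the 4 Decoy libraries than in PBS. They were 1.17%, 2.94%, 2.55% and 2.33% of kept cells in Decoy 2, 3, 5 and 6, against 0.319% in PBS. The exact Clopper-Pearson 95% intervals, which cover counting error only, were 0.916% to 1.47%, 2.23% to 3.79%, 2.06% to 3.12% and 1.84% to 2.91% in Decoy, against 0.241% to 0.416% in PBS. The groups did not overlap, with a Decoy mean of 2.25% ± 0.761 (SD, n = 4), against 0.319% in PBS (n = 1), a difference of 1.93 points (two-sided exact permutation p = 0.2, the smallest that 1 library against 4 can give). The share of all kept cells moves with the class high in mast cell genes, which was 0.360% of Decoy 5 and 84.2% of PBS. Among cells low in those genes the monocytes were 5.07%, 3.70%, 2.56% and 4.13% in Decoy, against 2.02% in PBS. The interval of Decoy 5, 2.07% to 3.13%, overlapped that of PBS, 1.53% to 2.62%. The Decoy mean was 3.87% ± 1.04 (SD, n = 4), against 2.02% in PBS (n = 1), 1.84 points higher (two-sided exact permutation p = 0.4). With this denominator the ratio of Decoy to PBS was 1.91, and over all kept cells it was 7.03. The cells had passed a gate for GFP and c-Kit, which can set both shares.

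**Figure D5:**
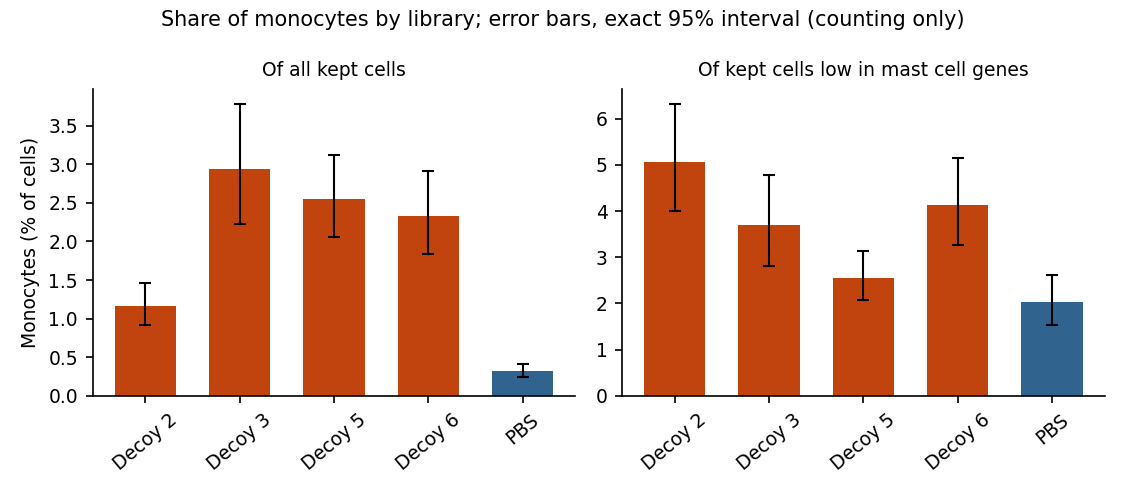
Share of monocytes in each library, in percent of all kept cells (left) and of kept cells low in mast cell genes (right), with the 4 Decoy libraries left of PBS and exact 95% intervals of counting as error bars. On the left all Decoy libraries lie above PBS (1.17% to 2.94%, against 0.319%), and on the right the interval of Decoy 5 overlaps that of PBS.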

How the data were processed

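Spleen cells sorted for GFP and c-Kit were profiled as 5 droplet libraries. The deposited matrices hold counts, whole numbers of UMIs per gene and barcode, with no normalization. The submitters' processing notes list Cell Ranger 3.1, Seurat 4, DESeq2 and the mm10 build, while the matrix headers name Cell Ranger 5.0.0; which tool did what is not given in the sources used here. Each library's smallest barcode held 500 to 502 UMIs.

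Kept barcodes had 500 or more genes, 1000 or more UMIs and a mitochondrial share of 10% or less, and members were taken by the rule in the text. Doublets were scored with scrublet in scanpy 1.11.5. Its automatic threshold marked 0% to 0.412% of Decoy cells and 6.42% of PBS cells, so no doublet was removed and removal at the expected rate of 0.8% per 1000 barcodes was an alternative. UMIs were summed per library. After filterByExpr and TMM scaling, edgeR 4.0.16 in R 4.3.3 gave two-sided quasi-likelihood tests (limma 3.58.1, DESeq2 1.42.0 and other scalings, filters and member rules as alternatives), with Benjamini-Hochberg adjustment over all genes tested. CPM is the summed count per 1000000 UMIs after TMM scaling unless said otherwise, and log2 fold changes are fitted values. Identifiers of 32235 of the 32285 genes, 99.8%, were found in the GENCODE annotation of GRCm38. Shares were compared by exact permutation over libraries with scipy 1.17.1. The members and gene lists were chosen with earlier results of these data known. Named genes were those of the rule, Irf8, Stat3, Socs3, Tlr9, Kit, Xist and the Y-linked genes, called genes of at least 20 CPM, in each list as many as 4 called genes, or otherwise its 2 most abundant ones, and the 2 most abundant markers of other cell types; others are said to be chosen after their values were seen. Some named genes are not reported here.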

Additional observations from a re-analysis of the deposited data

Results flagged for a closer look

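Of 109 named genes checked over the 4 Decoy libraries, 8 had 1 library that stood apart from the other Decoy libraries; chance alone sets about 1 in 20 such groups apart. In Decoy 2 monocytes Ifitm1 was at 1100.5 CPM, Xist at 78.1 CPM, Il1rl1 at 27.9 CPM, Ms4a2 at 19.0 CPM and Fcer1a at 16.6 CPM. In the other Decoy libraries Ms4a2 stood at 0 to 2.11 CPM and Fcer1a at 0 to 2.64 CPM, against 31.5 CPM and 28.6 CPM in PBS; the rule for the members limits both of these IgE receptor genes. In Decoy 3 Gzma was at 643 CPM, with 0 in the other 3 Decoy libraries and in PBS, and Nkg7 at 110.2 CPM. H2-DMb2 was at 31.1 CPM in Decoy 5, the highest of the Decoy libraries.

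The log2 fold change of Decoy over PBS differed between monocytes and C1q-high cells for 9 genes by edgeR's test of the difference. Besides H2-Eb1 (3.05), H2-Aa (2.71), H2-Ab1 (2.44), Cd74 (1.92) and Ifitm1 (-3.79), these were the class I gene H2-Q7 (2.44), the histone variant gene H2afx (2.09) and the neutrophil granule gene Lcn2 (-7.10), each with edgeR adjusted p = 0.015, and Ccdc88a (1.82, edgeR adjusted p = 0.0489), which encodes the actin-binding protein girdin. Values are log2 fold changes in monocytes minus those in the other class. H2afx averaged 232 CPM in Decoy monocytes, against 214 CPM in PBS monocytes, and 52.9 CPM in Decoy C1q-high cells, against 209 CPM in PBS C1q-high cells. Lcn2 averaged 1138 CPM in Decoy monocytes, against 1792 CPM in PBS monocytes, and 412 CPM in Decoy C1q-high cells, against 4.74 CPM in PBS C1q-high cells. The last value lies near the floor, as 5 UMIs of S100a8 in PBS C1q-high cells amounted to 23.7 CPM.

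Between monocytes and neutrophil-like cells it differed for Lgals1 (3.77) and Asprv1 (-5.71). Lgals1 averaged 713 CPM in Decoy monocytes, against 654 CPM in PBS monocytes, and 14.6 CPM in Decoy neutrophil-like cells, against 189 CPM in PBS neutrophil-like cells. Between monocytes and granule-high cells it differed for H2-Eb1 (-2.71), Cd74 (-2.31), Car1 (-2.26), H2-Aa (-2.06), H2-Ab1 (-2.02), Ly6a (-1.78), S100a4 (-1.62), Cd38 (1.96), Zfp36l1 (2.26) and Spint1 (2.31). Spint1, a protease inhibitor gene, averaged 26.1 CPM in Decoy monocytes, against 74.5 CPM in PBS monocytes, and 2.85 CPM in Decoy granule-high cells, against 41.3 CPM in PBS granule-high cells.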

How the results depend on the processing

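No paired analysis was possible because PBS and Decoy share no replicate number. The number of genes called between Decoy and PBS monocytes was 2 with RLE scaling, with library totals alone and with Ly6c2 of at least 2 UMIs. It was 97 with DESeq2, 11 with voom, 54 with no filter on low counts, 17 with a minimum of 10 UMIs, 13 with Ly6c2 of at least 5 UMIs, 72 after thinning, 88 with doublets removed, 80 with members holding UMIs of other lineages removed, 1 under 100 per 10000 of S100a8 and S100a9, 26 without members of 5 or more Xist UMIs and 41 at 40 or more Lyz2 per 10000. The last 3 were added after the data were seen. Leaving out single Decoy libraries gave 0 to 86 genes; 878 genes without Decoy 3 and 873 without Decoy 5 had an unadjusted p under 0.05 when none was called. Removing members with UMIs of other lineages left 5 PBS members, gave a median log2 fold change over all genes of 0.35 in place of 0.02, and turned Irf7 to -0.14. H2-Eb1 was called in 15 and H2-Aa in 14 of 18 alternatives. The losses are given above, and at 40 or more Lyz2 per 10000 only H2-Aa lost its call.

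Over 46 genes with a fold change in the text and 18 alternatives, 826 values in all, 627 kept direction and call, 191 gained a call, 7 lost one and 1 turned sign. The cause was not tested. The difference from C1q-high cells covered 156 genes with no filter and 8 to 22 without single libraries, that from neutrophil-like cells 1 with totals alone, 112 with no filter and 0 to 9 without single libraries, and that from granule-high cells 70 with no filter and 7 to 18 without single libraries. The share of monocytes lay above PBS on average under every alternative run, with an exact permutation p of at least 0.2. With 1 PBS library of 55 members, low genes such as Tlr9 could not be compared at this depth.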
